A study of Mus musculus with 22 samples.

Results

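Prdm1, Prdm14, Tfap2c, Alpl and Dnd1 are genes by which the founding of the mouse germ line is followed. They were chosen by symbol, with no threshold on a measured value, and are 5 of 37991 genes counted. All 5 were present in both deposited count tables and passed the filter on low counts. Primordial germ cells (PGCs), the precursors of eggs and sperm, are set aside in the early embryo when BMP and WNT signals act on competent epiblast cells. PRDM1, also called BLIMP1, is a zinc finger repressor that shuts off the somatic mesoderm programme in these cells. PRDM14, its relative, favours the pluripotency programme and lowers FGF receptors and the enzymes of new DNA methylation. TFAP2C, also called AP-2 gamma, is a transcription factor that acts after PRDM1, and together the trio starts the germ cell programme. Alpl encodes tissue-nonspecific alkaline phosphatase, the enzyme whose histochemical stain has long marked PGCs. Dnd1 encodes an RNA-binding protein that works with NANOS proteins on messenger RNAs, and in mice its loss removes germ cells and, on some backgrounds, leaves testicular teratomas.

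PGCs were sorted from embryos of a cross between parents that were both Tet1-het GOF18∆PE-EGFP, so that the Tet1-KO and the Tet1-WT embryos alike came from reporter-carrying parents. TET1 oxidises methylated cytosine in DNA. The groups were Tet1-KO and Tet1-WT at E10.5, with the sexes not separated, and Tet1-KO and Tet1-WT females and males at E12.5 and at E14.5. Each of these 10 groups had 2 libraries, which makes 20, and each library held RNA of 2 to 6 embryos pooled, equal to 1000 to 8000 cells. A further 2 wild-type libraries at E10.5 came from MF1 females crossed with GOF18∆PE-EGFP males, from 600 to 1000 cells each. The p-values below therefore measure the spread between 2 pools a group and the shared spread over all groups, not between single embryos.

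Counts per library summed to between 9.62 and 25.9 M (M for mega) in the Tet1 cross and to 59.42 and 66.92 M in the MF1 cross. Levels are given as CPM, which are counts per 1 M of the scaled library total. Tet1 itself, the targeted gene, had 44.49 and 102 CPM in the 2 E10.5 libraries labelled Tet1-KO, against 133.9 and 76.82 CPM in those labelled Tet1-WT. The libraries of the pair of labels overlapped (log2 ratio -0.52, adjusted p = 0.388), so the counts do not check the E10.5 labels. In the other groups the Tet1 counts of the Tet1-KO libraries all lay below those of the Tet1-WT libraries of the same stage and sex, with log2 ratios of -1.73 for females and -1.57 for males at E12.5, and of -0.85 for females and -1.05 for males at E14.5. Tet1 passed the test in E12.5 females (adjusted p = 0.0303) and in the average of the 5 groups (log2 -1.15, adjusted p = 0.00038). Where reads fall within the Tet1 gene could not be read from gene totals.

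Promoters are shown because TET1 acts on methylated CpG sites and because these genes moved together in some of the comparisons below. RefSeq starts on GRCm38.p6 were found for 2 of the 5 genes, Prdm1 and Alpl, and Alpl had a pair of them. Each line gives the 250 bases before a start, on the minus strand and 5′ to 3′, and capitals mark matches to GCCNNNGGC (the TFAP2 motif) or to GTGAAAGT or GTGAAAGG (the PRDM1 motif), searched on both strands.
Prdm1 chr10:44458749-44458998: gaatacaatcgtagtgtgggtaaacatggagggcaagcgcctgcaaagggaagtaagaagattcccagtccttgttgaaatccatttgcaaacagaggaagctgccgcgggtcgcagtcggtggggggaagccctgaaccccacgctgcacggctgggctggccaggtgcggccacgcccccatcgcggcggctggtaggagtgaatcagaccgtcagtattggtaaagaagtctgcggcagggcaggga
Alpl chr4:137796385-137796634: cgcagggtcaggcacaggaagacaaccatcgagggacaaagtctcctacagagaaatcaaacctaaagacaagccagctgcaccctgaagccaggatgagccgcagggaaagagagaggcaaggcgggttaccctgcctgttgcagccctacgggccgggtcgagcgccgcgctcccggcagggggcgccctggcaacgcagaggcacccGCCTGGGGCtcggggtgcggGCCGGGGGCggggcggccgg
Alpl chr4:137766476-137766725: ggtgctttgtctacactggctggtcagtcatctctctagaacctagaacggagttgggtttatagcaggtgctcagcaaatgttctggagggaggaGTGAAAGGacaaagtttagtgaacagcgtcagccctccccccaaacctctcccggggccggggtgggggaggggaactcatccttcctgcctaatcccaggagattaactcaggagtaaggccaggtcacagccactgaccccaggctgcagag
The Prdm1 window held 15 CpG sites, more than 72.7% of the 32851 promoters of that length, and no match. The upstream Alpl window held 20 CpG sites, more than 82.1% of promoters, and 2 matches to the TFAP2 motif, which 13.7% of all promoters contain. The second Alpl window held 4 CpG sites, below the median of 6, and 1 match to the PRDM1 motif, which 1.86% of promoters contain. The letters GGTCTCTAA, a PRDM14 motif found in 0.24% of promoters, occurred in none of the 3 windows. These matches describe letters only, and no methylation or binding was measured here.

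Prdm1 (ENSMUSG00000038151) lies on chromosome 10, Prdm14 (ENSMUSG00000042414) on chromosome 1, Tfap2c (ENSMUSG00000028640) on chromosome 2, Alpl (ENSMUSG00000028766) on chromosome 4 and Dnd1 (ENSMUSG00000044595) on chromosome 18. All are protein-coding, and their exons cover 5579, 2564, 3679, 4033 and 2412 bases in that order. Dnd1 overlaps Wdr55 on the opposite strand, and the strand setting of the counting is not given in the sources used here, so reads of the overlap could have been counted for either gene or for none. The log2 ratios of Wdr55 are given beside those of Dnd1. No promoter is shown for Prdm14, Tfap2c and Dnd1.

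The 5 genes were read in every library, but their levels ranged widely between groups. The highest group mean stood above the lowest by 17.2-fold for Prdm14, 15.2-fold for Tfap2c, 10.6-fold for Dnd1, 5.81-fold for Prdm1 and 4.05-fold for Alpl. The lowest group was E14.5 female Tet1-WT for every gene but Alpl, with 19.33 ± 8.19 CPM for Prdm1, 5.249 ± 0.977 CPM for Prdm14, 9.175 ± 3.365 CPM for Tfap2c and 42.06 ± 13.07 CPM for Dnd1 (SD, n = 2). Alpl was lowest in E12.5 male Tet1-WT, at 130.6 ± 18.15 CPM. The highest group was the E10.5 Tet1-KO label for Prdm1 (112.3 ± 30.35 CPM), Tfap2c (139.8 ± 34.73 CPM) and Alpl (529.4 ± 86.83 CPM), and E14.5 male Tet1-KO for Prdm14 (90.53 ± 18.76 CPM) and Dnd1 (447.8 ± 15.18 CPM). With the 10 groups ordered by mean, most neighbours in the order overlapped in their libraries. Of the 9 neighbouring pairs, 3 did not overlap for Prdm1, 2 for Prdm14, 4 for Tfap2c, 1 for Alpl and 2 for Dnd1.

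Between genes, levels can be compared only per length of exon. On that scale Alpl had the highest group mean of the 5 at E10.5 and in all 4 female groups, and Dnd1 in all 4 male groups. In E12.5 females the order of these genes was not the same in every library. Dnd1 stood above Alpl in Tet1-KO library b (141.3 against 138.2 CPM per kilobase) and in Tet1-WT replicate 2 (58.33 against 54.54). In E14.5 male Tet1-KO, Dnd1 reached 185.7 CPM per kilobase and Tfap2c 4.043, and in E14.5 male Tet1-WT Dnd1 reached 150.4 and Tfap2c 3.32. In E14.5 female Tet1-WT, Alpl stood at 52.66 CPM per kilobase, Dnd1 at 17.44 and the 3 transcription factor genes between 2.047 (Prdm14) and 3.465 (Prdm1).

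**Figure D1:**
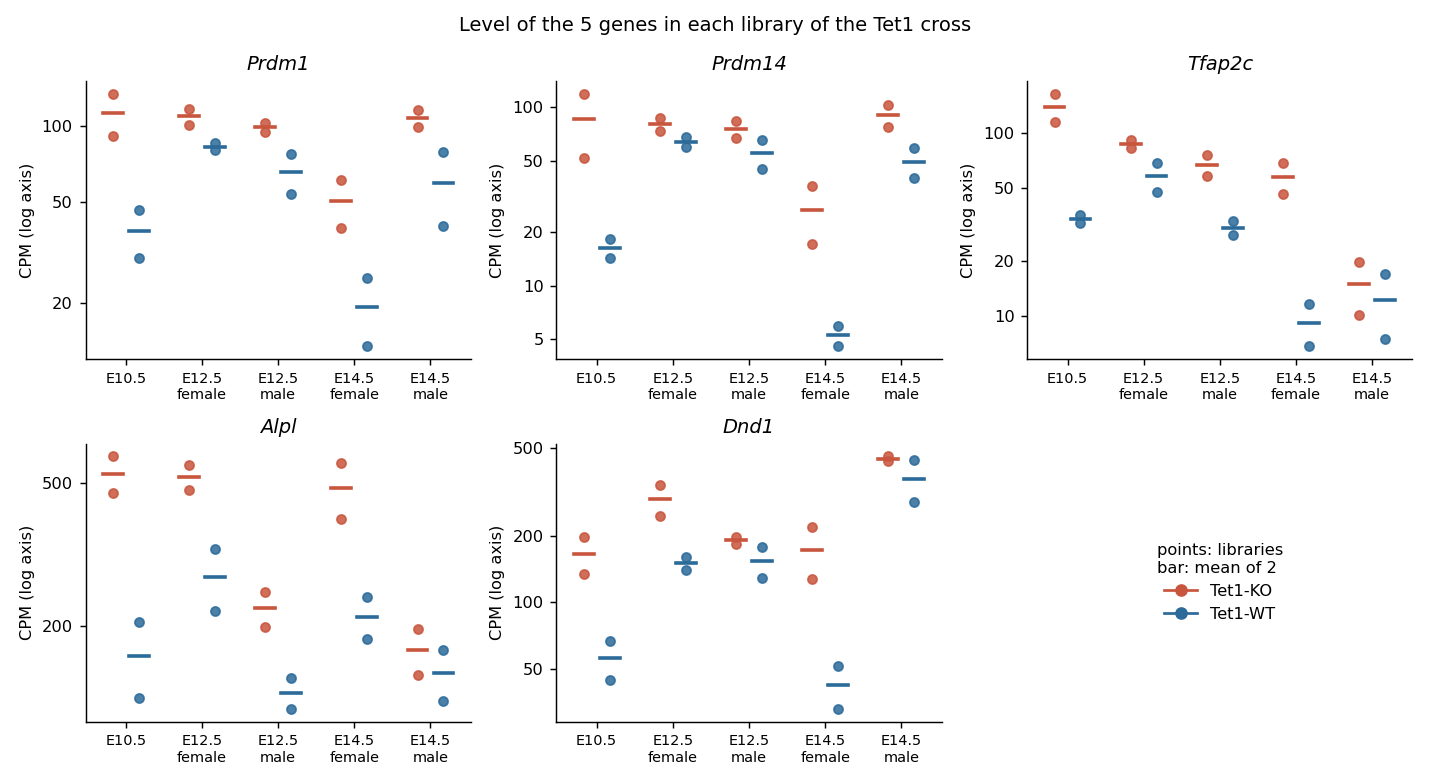
Level of each of the 5 genes in every library of the Tet1 cross, in CPM on a log axis, by stage and sex, with Tet1-KO left of Tet1-WT; each point is 1 library and each bar is the mean of the 2 libraries. Every gene but Alpl has its lowest group in E14.5 female Tet1-WT, where Prdm14 averages 5.249 CPM.

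At E10.5 all 5 genes were higher in the libraries labelled Tet1-KO than in those labelled Tet1-WT. Prdm14 had 119.5 and 52.15 CPM in libraries labelled Tet1-KO, against 14.35 and 18.15 CPM in those labelled Tet1-WT. Even the lower Tet1-KO library stood above both Tet1-WT libraries, and the fitted log2 ratio was 2.40 (SE 0.40, 95% interval 1.55 to 3.24), a 5.28-fold difference, with adjusted p = 0.00278 in edgeR's quasi-likelihood test. Tfap2c had 115.2 and 164.4 CPM in libraries labelled Tet1-KO, against 35.48 and 32.14 CPM in those labelled Tet1-WT. Its groups did not overlap either (log2 2.05, SE 0.39, adjusted p = 0.00646). Prdm1, the repressor of the mesoderm programme, had 133.8 and 90.89 CPM in libraries labelled Tet1-KO, against 46.77 and 30.2 CPM in those labelled Tet1-WT (log2 1.55, SE 0.35, adjusted p = 0.015).

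The phosphatase gene Alpl had 590.8 and 468 CPM in the E10.5 libraries labelled Tet1-KO, against 205 and 126.3 CPM in those labelled Tet1-WT. The groups stood apart by 3.2-fold (log2 1.68, SE 0.28, adjusted p = 0.00307). Dnd1 had 197 and 133.7 CPM in libraries labelled Tet1-KO, against 66.83 and 44.68 CPM in those labelled Tet1-WT, again without overlap (log2 1.57, SE 0.31, adjusted p = 0.00789). Wdr55, on the strand opposite Dnd1, was also higher there, by less (log2 0.92, adjusted p = 0.00843). Thus 5 of 5 genes were called higher at E10.5, where 4.10% of all 17567 tested genes were, and 20.1% of all genes had both Tet1-KO libraries above both Tet1-WT libraries. The calls rest on few libraries: without Tet1-WT replicate 2 those of Prdm1 (log2 1.27, adjusted p = 0.133), Tfap2c (log2 1.98, 0.0587) and Dnd1 (log2 1.31, 0.0814) were lost, and without Tet1-KO replicate 1 that of Prdm1 (log2 1.25, 0.0711). With only these 4 libraries in the fit all 5 calls were lost, at adjusted p between 0.156 and 0.174, although the log2 ratios stayed between 1.53 and 2.38.

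Other measurements moved with genotype label at E10.5. The summed level of 5 germ cell markers (Dazl, Ddx4, Dppa3, Pou5f1 and Kit) was 2594 to 4307 CPM in libraries labelled Tet1-KO and 1007 to 1176 CPM in those labelled Tet1-WT, and the sum of 12 mesenchyme markers was 374.7 to 831.9 CPM in libraries labelled Tet1-KO and 1595 to 1905 CPM in those labelled Tet1-WT, where it exceeded the germ cell sum. Of the germ cell sum, Dppa3 alone gave 3341 and 2004 CPM in libraries labelled Tet1-KO, and 844.1 and 732 CPM in those labelled Tet1-WT. Of the 5 germ cell markers, 2 were called higher and 0 lower. Beside these and the marker calls below, 4.10% of all genes were called higher at E10.5 and 4.70% lower. In E14.5 Tet1-WT females Dppa3 gave 484.3 and 891.5 CPM of a sum of 5283 to 5593 CPM. The sum thus weighs its genes differently by group. None of the 12 mesenchyme markers was at 0 in both libraries of a genotype label, and 1 of them was called lower. Endothelium and blood markers summed to 170.1 to 205.4 CPM in libraries labelled Tet1-KO and 106.6 to 110.5 CPM in those labelled Tet1-WT, with 6 of 9 at 0 in both Tet1-KO libraries; 1 of the 9 was called higher and 3 lower, and their median log2 was -4.02. Testis supporting cell markers summed to 4.661 to 19.06 CPM in libraries labelled Tet1-KO and 50.94 to 55.42 CPM in those labelled Tet1-WT, with 1 called lower, and erythroid markers summed to 17.09 to 919.9 CPM in libraries labelled Tet1-KO and 104 to 1430 CPM in those labelled Tet1-WT. In bulk samples fewer cells of a type and less RNA per cell cannot be told apart. What part the share of germ cells had in the E10.5 differences was not tested.

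**Figure D2:**
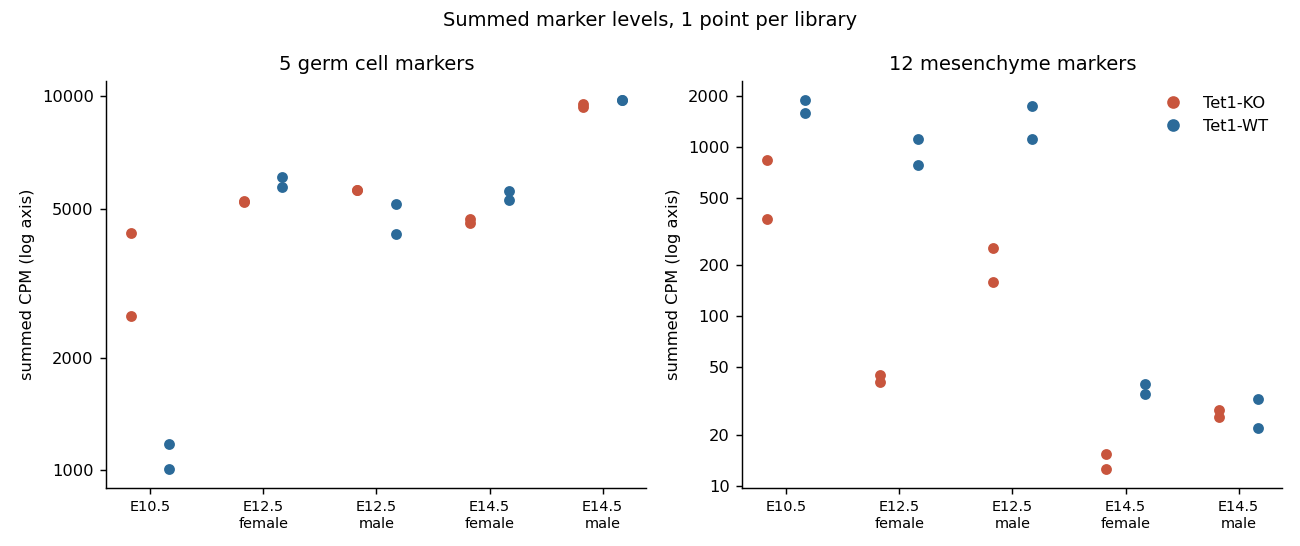
Summed level of the germ cell markers and of the mesenchyme markers, in CPM on a log axis, in every library by stage and sex, Tet1-KO left of Tet1-WT. The mesenchyme sums of the Tet1-KO libraries lie below those of the Tet1-WT libraries at E10.5, at E12.5 and for E14.5 females, and overlap in E14.5 males (25.42 to 28.04 CPM in Tet1-KO, 21.9 to 32.74 CPM in Tet1-WT).

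At E12.5 none of the 5 genes passed the test in either sex, although every gene's Tet1-KO libraries lay above its Tet1-WT libraries. In females Dnd1 had 246.2 and 340.9 CPM in the Tet1-KO libraries, against 161.2 and 140.7 CPM in Tet1-WT (log2 0.96, 95% interval 0.30 to 1.62, adjusted p = 0.169). Alpl had 477 and 557.5 CPM in Tet1-KO females, against 326.6 and 220 CPM in Tet1-WT females (log2 0.92, 95% interval 0.33 to 1.51, adjusted p = 0.135). The 3 transcription factor genes differed by less. Prdm1 had 100.7 and 116.9 CPM in Tet1-KO females, against 85.48 and 79.97 CPM in Tet1-WT females (log2 0.39, adjusted p = 0.713). Prdm14 had 73.72 and 86.91 CPM in Tet1-KO females, against 60.09 and 68.51 CPM in Tet1-WT females (log2 0.32, 0.823). Tfap2c had 92.06 and 83.03 CPM in Tet1-KO females, against 68.69 and 47.32 CPM in Tet1-WT females (log2 0.59, 0.572). Wdr55 had a log2 ratio of 0.65 there (0.11). edgeR called 0 of the 5 in females, where 1.29% of all genes were called in either direction, with 2 at an unadjusted p under 0.05; DESeq2 called 2 and limma's voom 0. Without the filter on low counts Alpl (0.92, 0.000564) and Dnd1 (0.95, 0.000594) were called.

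In E12.5 males the same held. Tfap2c had 75.75 and 57.97 CPM in the Tet1-KO libraries, against 27.83 and 32.9 CPM in Tet1-WT, the largest log2 ratio of the 5 (log2 1.14, 95% interval 0.32 to 1.96, adjusted p = 0.188). Alpl had 199.3 and 249.3 CPM in Tet1-KO males, against 117.7 and 143.4 CPM in Tet1-WT males (log2 0.78, 0.206). The other 3 genes were closer together. Prdm1 had 102.6 and 94.45 CPM in Tet1-KO males, against 53.66 and 77.34 CPM in Tet1-WT males (log2 0.59, 0.457). Prdm14 had 67.25 and 83.98 CPM in Tet1-KO males, against 44.88 and 65.43 CPM in Tet1-WT males (log2 0.46, 0.623). Dnd1 had 197.1 and 184.6 CPM in Tet1-KO males, against 129.4 and 178.6 CPM in Tet1-WT males (log2 0.31, 0.696). edgeR called 0 of the 5 in males, where 1.06% of all genes were called in either direction, with 2 at an unadjusted p under 0.05, and DESeq2 and voom called 0. edgeR did call Tfap2c (1.09, 0.021) and Alpl (0.73, 0.0267) with only the 4 male libraries in the fit, and both again without the filter on low counts (1.15, 0.00521 and 0.79, 0.00647). Wdr55 had a log2 ratio of 0.23 in these males (0.609). Libraries that do not overlap are common with 2 against 2: in females 22.8% and in males 26.7% of all genes had both Tet1-KO libraries above both Tet1-WT libraries.

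The mesenchyme markers stood furthest apart at E12.5, at 41.23 to 45.18 CPM in Tet1-KO and 781.2 to 1115 CPM in Tet1-WT females, and at 159.7 to 252.3 CPM in Tet1-KO and 1108 to 1750 CPM in Tet1-WT males. Of the 12, 7 were called lower in females and 5 in males, where 1.29% and 1.06% of all genes were called in either direction. The germ cell marker sum in females was not higher in Tet1-KO, with 5213 to 5240 CPM in Tet1-KO and 5711 to 6104 CPM in Tet1-WT, and in males it was 5617 to 5626 CPM in Tet1-KO and 4298 to 5147 CPM in Tet1-WT. Its part and that of the mesenchyme in these differences was not tested.

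In E14.5 females all 5 genes were higher in Tet1-KO than in Tet1-WT, where 3.36% of all genes were called higher. Tfap2c had 46.55 and 68.6 CPM in the Tet1-KO libraries, against 6.796 and 11.55 CPM in Tet1-WT, a 6.37-fold gap (log2 2.67, SE 0.41, adjusted p = 0.00263). Prdm14 had 17.21 and 36.26 CPM in the Tet1-KO libraries, against 5.94 and 4.558 CPM in Tet1-WT (log2 2.33, SE 0.41, adjusted p = 0.00531). Both Tet1-KO libraries of each gene lay above both Tet1-WT libraries, as in 21.6% of all genes. Dnd1 had 127.8 and 218.8 CPM in the Tet1-KO libraries, against 32.82 and 51.31 CPM in Tet1-WT (log2 2.05, SE 0.32, adjusted p = 0.00263). Wdr55 had a log2 ratio of 0.65 there (adjusted p = 0.0532).

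Prdm1 had 39.76 and 61.09 CPM in E14.5 Tet1-KO females, against 13.54 and 25.12 CPM in Tet1-WT females (log2 1.40, SE 0.36, adjusted p = 0.029). Alpl had 396.5 and 566.3 CPM in Tet1-KO females, against 184 and 240.7 CPM in Tet1-WT females (log2 1.18, SE 0.28, adjusted p = 0.0195). Neither gene overlapped between the genotypes. Tet1-WT replicate 1 was the lower Tet1-WT library for 4 of the 5 genes, and without it none of the 5 passed, with Prdm1 at log2 1.02 (adjusted p = 0.334), Prdm14 at 2.57 (0.0607), Tfap2c at 2.33 (0.0613), Alpl at 1.01 (0.227) and Dnd1 at 1.77 (0.0599). Without Tet1-KO library b the calls of Prdm1 (1.10, 0.258), Prdm14 (1.74, 0.0655) and Alpl (0.94, 0.201) were lost. In these females the mesenchyme sum was 12.53 to 15.47 CPM in Tet1-KO and 34.88 to 39.82 CPM in Tet1-WT with Meox1 and Osr1 at 0 in both libraries of either genotype, and the germ cell sum was 4583 to 4700 CPM in Tet1-KO and 5283 to 5593 CPM in Tet1-WT. Among all genes, 3.36% were called higher here and 3.29% lower. Of the 5 germ cell markers 2 were called higher in Tet1-KO and 0 lower, Dppa3 (1.27, 0.00988) and Pou5f1 (1.55, 0.0068), and the median log2 was 1.23. Their part in the differences was not tested.

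In E14.5 males none of the 5 genes passed the test. Tfap2c had 19.68 and 10.08 CPM in the Tet1-KO libraries, against 16.99 and 7.432 CPM in Tet1-WT (log2 0.29, adjusted p = 0.892). Dnd1 had 437.1 and 458.5 CPM in Tet1-KO males, against 283.6 and 441.9 CPM in Tet1-WT males (log2 0.30, 0.822), and Alpl 145.9 and 196.5 CPM in Tet1-KO males, against 124.1 and 171.8 CPM in Tet1-WT males (log2 0.21, 0.886). These 3 genes overlapped between the genotypes. Prdm1 and Prdm14 did not overlap: Prdm1 had 115.3 and 99.06 CPM in Tet1-KO males, against 78.73 and 40.16 CPM in Tet1-WT males (log2 0.85, 95% interval 0.12 to 1.59, adjusted p = 0.395). Prdm14 had 103.8 and 77.27 CPM in Tet1-KO males, against 59.3 and 40.16 CPM in Tet1-WT males (log2 0.87, adjusted p = 0.435). edgeR called 0 of the 5, where 0.0797% of all genes were called higher, with 2 at an unadjusted p under 0.05, and DESeq2 and voom called 0; 24.9% of all genes had their Tet1-KO libraries above without overlap. Wdr55 had a log2 ratio of 0.19 (0.809). The mesenchyme sum overlapped as well.

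**Figure D3:**
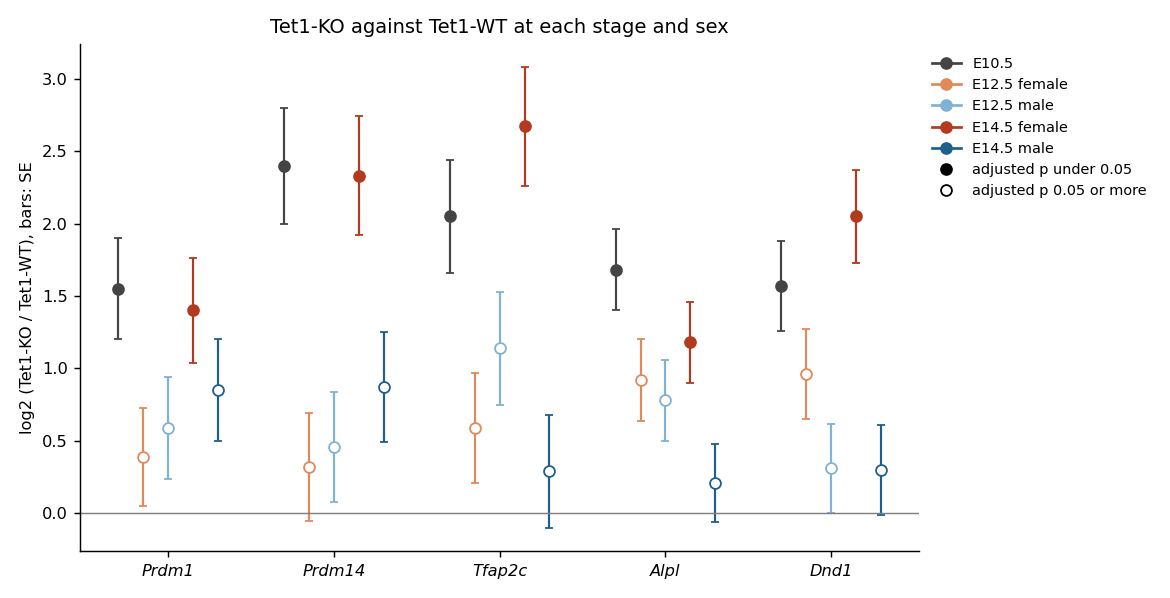
Fitted log2 ratio of Tet1-KO over Tet1-WT for each of the 5 genes in each stage and sex group, with bars of 1 SE; filled points have an adjusted p under 0.05. For each gene the ratios at E10.5 and in E14.5 females, where Tfap2c reaches 2.67, are the largest and are filled.

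The difference between the sexes in the Tet1-KO effect was tested itself. At E14.5 the effect on Tfap2c was lower in males than in females, with a difference of -2.38 on the log2 scale (SE 0.56, 95% interval -3.58 to -1.18, adjusted p = 0.0495), a direction in which 0.478% of all genes were called; the median of all genes was 0.11. Dnd1 differed by -1.75 (SE 0.44, adjusted p = 0.0609), Prdm14 by -1.47 (0.199), Alpl by -0.97 (0.23) and Prdm1 by -0.55 (0.686), and none of these 4 passed in edgeR. Other settings did call some of them: DESeq2 (-1.77, 0.00295) and voom (-1.82, 0.0452) called Dnd1, and without the filter on low counts edgeR called Dnd1 (-1.78, 2.71e-06), Prdm14 (-1.50, 0.015) and Alpl (-1.01, 0.0223). The fit without the filter left the log2 ratios almost unchanged, while the adjusted p of Dnd1 fell from 0.0609 to 2.71e-06. Why it fell was not tested. In the fit with the filter, Wdr55 differed by -0.46 (0.449). The Tfap2c call was lost in 13 of the 20 fits that left out 1 library, with the adjusted p up to 0.242 without E14.5 female Tet1-WT replicate 1, and under voom (-2.41, 0.0818). At E12.5 edgeR called 0% of all genes in that test, with 1007 of 17567 genes and 0 of the 5 at an unadjusted p under 0.05, and DESeq2 and voom called 0 of the 5. The effect in females at E14.5 minus that at E12.5 was 2.01 for Prdm14 (SE 0.55, adjusted p = 0.0879), 2.08 for Tfap2c (SE 0.55, 0.0786), 1.09 for Dnd1 (0.251), 1.00 for Prdm1 (0.378) and 0.26 for Alpl (0.87). edgeR called 0 of these, where 1.30% of all genes were called, with 3 at an unadjusted p under 0.05, and DESeq2 called 2 and voom 0. Wdr55 differed by -0.00 (adjusted p = 1). In males 0 of the 5 were called by edgeR, DESeq2 or voom, with 0 at an unadjusted p under 0.05, where 0.803% of all genes were called.

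Averaged over the 5 stage and sex groups with equal weight, all 5 genes were higher in Tet1-KO, where 6.90% of all genes were. The mean log2 ratios were 1.35 for Tfap2c (SE 0.18, adjusted p = 0.000216), 1.28 for Prdm14 (SE 0.17, 0.000282), 1.04 for Dnd1 (SE 0.14, 0.000251), 0.96 for Prdm1 (SE 0.16, 0.000959) and 0.95 for Alpl (SE 0.12, 0.000215). Wdr55 was called higher too (0.53, 0.000751). The 5 calls held in every fit that left out 1 library. The mesenchyme and germ cell values given above belong beside this average too.

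With stage, Prdm14 and Dnd1 rose by E12.5 in Tet1-WT, 4 of the 5 genes fell by E14.5 in Tet1-WT females, and in males Dnd1 rose as Tfap2c fell. At E12.5 Prdm14 had risen in Tet1-WT females to 60.09 and 68.51 CPM, against 14.35 and 18.15 CPM at E10.5 (log2 1.98, adjusted p = 0.00343), and Dnd1 to 161.2 and 140.7 CPM, against 66.83 and 44.68 CPM (log2 1.44, 0.00644; lost without E10.5 Tet1-WT replicate 2, 0.0816), with Wdr55 at 0.25 (0.416). Prdm1 passed narrowly (log2 1.10, 0.0474), and its call was lost with RLE scaling (1.01, 0.0682), with only the 4 libraries compared (1.09, 0.052) and in 12 fits that left out a library, by most without E10.5 Tet1-WT replicate 2 (0.81, 0.301). These are 3 of 5 called higher, where 8.81% of all genes were. In Tet1-WT males Prdm14 (log2 1.76, 0.00972; lost without E10.5 Tet1-WT replicate 1, 0.0844, and without E12.5 Tet1-WT male replicate 2, 0.101) and Dnd1 (log2 1.47, 0.00792; lost without E10.5 Tet1-WT replicate 2, 0.1, and without E12.5 Tet1-WT male replicate 2, 0.0915) were called higher, where 6.40% of all genes were. Wdr55 was called higher in these males as well (0.74, 0.0204). The same E10.5 libraries serve both sexes, so these comparisons share them. In Tet1-KO females 0 of 5 were called by edgeR, where 10.4% of all genes were called in either direction, with 1 at an unadjusted p under 0.05, and DESeq2 and voom called 0. In Tet1-KO males Alpl fell to 199.3 and 249.3 CPM at E12.5, against 590.8 and 468 CPM in the E10.5 libraries labelled Tet1-KO (log2 -1.24, 0.0115; lost without E12.5 male Tet1-KO library a, -1.08, 0.115), where 2.86% of all genes were called lower. Tfap2c did not pass in edgeR there (-1.06, 0.097), but was called lower by DESeq2 (-1.13, 0.0329), by voom (-1.08, 0.0207) and without the filter on low counts (-1.07, 0.00457). Beside the Tet1-WT rises, the germ cell marker sum was 5711 to 6104 CPM in E12.5 Tet1-WT females and 4298 to 5147 CPM in E12.5 Tet1-WT males, against 1007 to 1176 CPM in the E10.5 libraries labelled Tet1-WT, and its part in them was not tested.

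Between E12.5 and E14.5 in Tet1-WT females the levels of Prdm1, Prdm14, Tfap2c and Dnd1 all fell, while that of Alpl did not pass the test. Prdm14 fell to 5.94 and 4.558 CPM at E14.5, against 60.09 and 68.51 CPM at E12.5 (log2 -3.60, SE 0.43, 12.1-fold, adjusted p = 2.48e-05). Tfap2c fell to 6.796 and 11.55 CPM, against 68.69 and 47.32 CPM (log2 -2.68, SE 0.41, 0.000206), Prdm1 to 13.54 and 25.12 CPM, against 85.48 and 79.97 CPM (log2 -2.11, SE 0.36, 0.00051), and Dnd1 to 32.82 and 51.31 CPM, against 161.2 and 140.7 CPM (log2 -1.85, SE 0.32, 0.000512). For these 4 genes both E14.5 libraries lay below both E12.5 libraries. Wdr55 was also called lower (log2 -1.45). Alpl was 184 and 240.7 CPM at E14.5, against 326.6 and 220 CPM at E12.5 (log2 -0.36, 0.37). In this comparison 33.9% of all genes had both E14.5 libraries below both E12.5 libraries, and 25.3% were called in either direction. The 4 of 5 calls held in every fit that left out 1 library. The germ cell sum was 5283 to 5593 CPM at E14.5 and 5711 to 6104 CPM at E12.5, and the mesenchyme sum 34.88 to 39.82 CPM at E14.5 and 781.2 to 1115 CPM at E12.5. Within the germ cell sum Dppa3 (-2.10, 3.78e-05), Pou5f1 (-1.79, 0.000341) and Kit (-1.47, 0.0117) were called lower along with the 4 genes. Their part in the falls was not tested.

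In Tet1-KO females edgeR called Prdm14, at 17.21 and 36.26 CPM at E14.5, against 73.72 and 86.91 CPM at E12.5 (log2 -1.58, SE 0.39, adjusted p = 0.0155); 7.02% of all genes were called lower. The call was lost without E12.5 Tet1-KO library b (-1.46, 0.0927) and without E14.5 Tet1-KO library a (-1.14, 0.132). Prdm1 did not pass in edgeR (-1.11, 0.0531), but was called lower by DESeq2 (-1.04, 0.0226), by voom (-1.09, 0.0252), without the filter on low counts (-1.10, 0.000558) and with only the 4 libraries compared (-1.09, 0.0454). Dnd1 had a log2 ratio of -0.76 (0.136; called without the filter, -0.75, 0.00766), Tfap2c -0.60 and Alpl -0.10. Wdr55 was called lower (-1.46, 0.000295), as were Dppa3 (-0.86, 0.0428) and Pou5f1 (-1.49, 0.00381) of the germ cell markers. Whether the genotypes differ in these stage changes was tested as the change of the Tet1-KO effect above.

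In males Tfap2c fell and Dnd1 rose between E12.5 and E14.5. Tfap2c was at 19.68 and 10.08 CPM in E14.5 Tet1-KO males, against 75.75 and 57.97 CPM at E12.5 (log2 -2.17, SE 0.40, adjusted p = 0.00367), where 4.87% of all genes were called lower. Without E14.5 male Tet1-KO library b it was -1.79 (0.0677). In Tet1-WT males Tfap2c was at 16.99 and 7.432 CPM at E14.5, against 27.83 and 32.9 CPM at E12.5 (log2 -1.32, SE 0.39, 0.0381), where 7.75% of all genes were called lower; that call was lost in 4 of the fits that left out a library, among them without E14.5 male Tet1-WT replicate 2 (-0.82, 0.322), and with only the 4 libraries compared (-1.31, 0.0986). Dnd1, the RNA-binding protein gene, was at 437.1 and 458.5 CPM in E14.5 Tet1-KO males, against 197.1 and 184.6 CPM at E12.5 (log2 1.23, SE 0.31, 0.0206), where 5.50% of all genes were called higher, and the call was lost without any 1 of the 4 male Tet1-KO libraries (adjusted p 0.0638 to 0.126). In Tet1-WT males it was at 283.6 and 441.9 CPM at E14.5, against 129.4 and 178.6 CPM at E12.5 (log2 1.24, SE 0.31, 0.0166), where 4.92% of all genes were called higher, and was lost without E12.5 Tet1-WT replicate 1 (0.154) or E14.5 Tet1-WT replicate 2 (0.90, 0.163). Wdr55 was not called in either genotype (log2 -0.21 in Tet1-KO, -0.17 in Tet1-WT males).

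The germ cell marker sum was also higher at E14.5 in males, at 9343 to 9522 CPM in Tet1-KO and 9801 to 9813 CPM in Tet1-WT at E14.5, against 5617 to 5626 CPM in Tet1-KO and 4298 to 5147 CPM in Tet1-WT at E12.5. Its part in the rise of Dnd1 was not tested. Prdm1, Prdm14 and Alpl had log2 ratios of E14.5 over E12.5 in males between -0.39 and 0.26 in Tet1-KO and between -0.15 and 0.18 in Tet1-WT, none of them called.

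**Figure D4:**
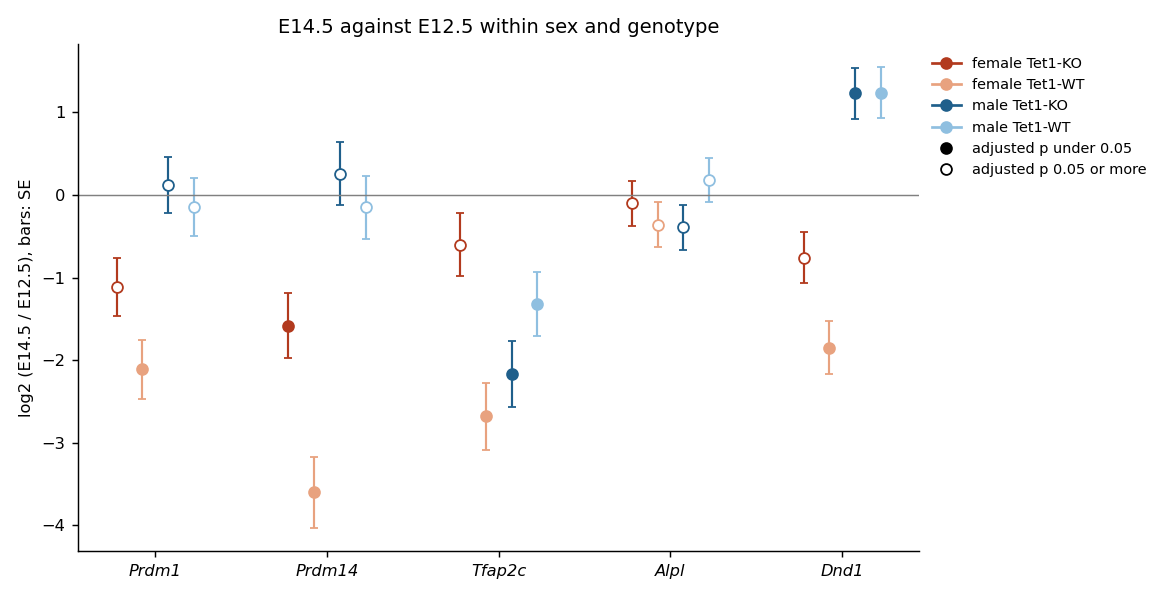
Fitted log2 ratio of E14.5 over E12.5 for each of the 5 genes, by sex and genotype, with bars of 1 SE; filled points have an adjusted p under 0.05. In Tet1-WT females Prdm14 lies lowest at -3.60, while in males Dnd1 lies at 1.23 in Tet1-KO and 1.24 in Tet1-WT.

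Against E14.5 females, E14.5 males had more Prdm1, Prdm14 and Dnd1. In Tet1-WT, Prdm14 had 59.3 and 40.16 CPM in males, against 5.94 and 4.558 CPM in females (log2 3.22, SE 0.42, 9.35-fold, adjusted p = 4.34e-05), Dnd1 283.6 and 441.9 CPM, against 32.82 and 51.31 CPM (log2 3.12, SE 0.33, 8.67-fold, 6.77e-06), and Prdm1 78.73 and 40.16 CPM, against 13.54 and 25.12 CPM (log2 1.63, SE 0.36, 0.00299; lost without E14.5 female Tet1-WT replicate 1, 1.25, 0.0551). For all 3 the sexes stood apart without overlap, as did 31.7% of all genes with males above, and 28.1% of all genes were called in either direction. Wdr55 was called higher in males too (log2 1.77 in Tet1-WT, 1.32 in Tet1-KO). Tfap2c, at 12.21 ± 6.762 CPM in males and 9.175 ± 3.365 CPM in females, and Alpl, at 147.9 ± 33.73 CPM in males and 212.4 ± 40.13 CPM in females, were not called (SD, n = 2). In Tet1-KO the same 3 genes were called higher in males than in females, where 11.6% of all genes were, with log2 1.76 for Prdm14 (0.00525), 1.37 for Dnd1 (0.00633) and 1.09 for Prdm1 (0.0397). The first of these was lost without E14.5 female Tet1-KO library a (1.25, 0.0721), Dnd1 likewise (0.97, 0.0941), and Prdm1 in 9 fits that left out a library. Tfap2c and Alpl were called lower in Tet1-KO males, where 7.43% of all genes were, with log2 -1.95 (0.0031; lost without E14.5 male Tet1-KO library b, -1.57, 0.0508) and -1.49 (0.00172). The germ cell sum was higher in E14.5 males than in females of both genotypes (9343 to 9522 against 4583 to 4700 CPM in Tet1-KO, 9801 to 9813 against 5283 to 5593 CPM in Tet1-WT), and its part in these differences was not tested. At E12.5 edgeR called 0 of the 5 between the sexes in either genotype, where 0.398% of all genes were called in Tet1-KO and 0.575% in Tet1-WT, with 1 and 2 at an unadjusted p under 0.05 and with 1 call each by DESeq2 and 0 by voom. The lower Alpl level in males did not pass in edgeR (log2 -1.21, adjusted p = 0.086 in Tet1-KO and -1.07, 0.0957 in Tet1-WT), and Alpl was the gene DESeq2 called (-1.20, 0.00182 in Tet1-KO and -1.03, 0.00693 in Tet1-WT).

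The MF1 libraries had higher values of all 5 genes than the E10.5 Tet1-WT libraries without passing the test. In this separate fit Prdm14 had 113.4 and 61.54 CPM in the MF1 libraries, against 14.57 and 18.01 CPM in Tet1-WT (log2 2.42, adjusted p = 0.094), and Tfap2c 105.5 and 104.1 CPM in MF1, against 36.03 and 31.89 CPM in Tet1-WT (log2 1.63, 0.103). Alpl had 748.8 and 392.3 CPM in MF1, against 208.2 and 125.3 CPM in Tet1-WT (log2 1.77, 0.144), Dnd1 132 and 182.8 CPM, against 67.88 and 44.33 CPM (log2 1.49, 0.142), and Prdm1 153.2 and 55.11 CPM, against 47.51 and 29.96 CPM (log2 1.43, 0.246). In each the MF1 libraries lay above without overlap, as did those of 24.8% of all genes. edgeR called 0 of the 5, where 0.606% of all genes were called, with 4 at an unadjusted p under 0.05, and DESeq2 called 4 and voom 0; without the filter on low counts edgeR called all 5. Wdr55 had a log2 ratio of 1.30 (0.152). The 2 MF1 libraries were less alike than those of any Tet1 cross group. Their log2 CPM had a Pearson correlation of 0.834, against 0.898 to 0.978 in those groups. Genes with a count numbered 15147 and 20012 in the MF1 libraries. Leaving out 1 library of this fit gave log2 ratios of 0.66 to 1.98 for Prdm1 and 2.07 to 2.80 for Prdm14. They were 1.54 to 1.77 for Tfap2c, 1.38 to 2.18 for Alpl and 1.21 to 1.86 for Dnd1. Cross, RNA kit, cell number and sequencing depth differ together here and cannot be told apart. The germ cell marker sum was 4270 to 4616 CPM and the mesenchyme sum 46.39 to 46.47 CPM in MF1, against 1007 to 1176 and 1595 to 1905 CPM in Tet1-WT.

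Around the 5 genes, the rest of the pathway was read from lists chosen with earlier results of these data known. They are described by counts only, which are no independent support. PGC programme genes, the pluripotency and germ cell genes that PGCs turn on, were called along with them. At E10.5, 10 of 11 were called higher in the libraries labelled Tet1-KO, with a median log2 of 1.64 beside 4.10% of all genes called higher and a median of -0.00 for all genes, and Sall4 (1.55), Dppa3 (1.76) and Sox2 (1.99) were among them. In E14.5 females 8 of 11 were higher in Tet1-KO (median 1.38), beside 3.36% of all genes, including Tcl1 (1.47), Sall4 (1.32) and Nanog (2.29), and over the average 11 of 11, beside 6.90% of all genes. In E12.5 females edgeR called 1 of 11, Pou5f1 (1.26, adjusted p = 0.0429), where 1.29% of all genes were called in either direction. There 4 of the 11 had an unadjusted p under 0.05, and DESeq2 and voom called 2 each. edgeR called 0 in E12.5 males, where 1.06% of all genes were called in either direction. It also called 0 in E14.5 males, where 0.0797% were called higher. Of the 11, 7 had an unadjusted p under 0.05 in E12.5 males and 2 in E14.5 males. DESeq2 called 2 and 1 in these males, voom 0. Since Dppa3, Pou5f1 and Kit are also germ cell markers, this list is not independent of the marker sums above. Dppa3, which guards maternal imprints, had 2673 ± 945.6 CPM in the E10.5 libraries labelled Tet1-KO and 788.1 ± 79.26 CPM in those labelled Tet1-WT (SD, n = 2).

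Among genes tied to the induction of PGCs the calls went in both directions. At E10.5 4.10% of all genes were called higher and 4.70% lower, and in E14.5 females 3.36% higher and 3.29% lower. Of 12 tested, Wnt3 was higher at E10.5 (log2 2.31, 5.838 CPM in Tet1-KO and 1.174 CPM in Tet1-WT) and Smad5, a BMP signal carrier, was lower (-0.96), and Smad5 was lower in E12.5 males as well (-1.44). Of these 12, 7 had an unadjusted p under 0.05 at E10.5, where edgeR called 2, DESeq2 6 and voom 2. Acvr1, a BMP type I receptor, was higher in E14.5 Tet1-KO females (1.86). Of 8 protein partners, edgeR called 0 at E10.5, with 3 at an unadjusted p under 0.05 and 1 call each by DESeq2 and voom. In E14.5 females Prmt5 (0.76, adjusted p = 0.0226), the arginine methyltransferase that binds PRDM1, was called higher in Tet1-KO. Its partner Wdr77 passed narrowly (0.53, 0.0484). Of 7 genes that PRDM14 lowers, Ehmt1 (-1.07) and Uhrf1 (-1.43), which acts in the upkeep of DNA methylation, were lower at E10.5. In E14.5 females Fgfr2 passed narrowly as higher in Tet1-KO (1.77, adjusted p = 0.049), at 9.73 CPM in Tet1-KO and 2.981 CPM in Tet1-WT. DESeq2 called 1 of the 7 there and voom 0. Of 5 mesoderm genes tested that PRDM1 lowers, edgeR and DESeq2 called 0 at E10.5, with 0 at an unadjusted p under 0.05, and voom called 3. Snai1 was called higher in E14.5 females at 1.13 CPM in Tet1-KO and 0.053 CPM in Tet1-WT, at levels too low to read a fold from. Of 13 family members edgeR and DESeq2 called 0 at E10.5, with 3 at an unadjusted p under 0.05 and 2 calls by voom. Prdm9, which sets the sites of meiotic recombination, was lower in E14.5 Tet1-KO females (-2.43).

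In the stage comparison of Tet1-WT females, 11 of 11 PGC programme genes fell at E14.5 against E12.5 (median -2.07), among them Nanog (-3.62), Tcl1 (-2.62) and Sall4 (-2.07). There 9 of 9 meiotic entry genes rose (median 3.14) and Prdm9 rose by 5.48 on the log2 scale, where 25.3% of all genes were called in either direction. Of the 7 genes that PRDM14 lowers, 2 were called lower at E14.5, Fgfr2 (-3.08) and Dnmt3a (-1.83), and 1 higher, Uhrf1 (1.00). Of the 5 tested mesoderm genes that PRDM1 lowers, 2 were called lower and 0 higher. These were Lhx1 (-3.09) and Snai1, at 0.053 CPM at E14.5 and 2.781 CPM at E12.5. In Tet1-KO females at E14.5, 7 of 9 meiotic entry genes were lower than in Tet1-WT females, beside 3.29% of all genes, with Sycp3 at -1.74, Smc1b at -1.37 and Sycp1 at -1.84, components of the synaptonemal complex and cohesin. At E10.5, edgeR called 4 of 9 meiotic genes higher in the libraries labelled Tet1-KO and 1 lower, beside 4.10% and 4.70% of all genes. In either direction DESeq2 called 5 of the 9 there, but voom only 2. In Tet1-WT males at E14.5 against E12.5, 3 PGC programme genes rose and 1 fell, with Dppa3 at 1.39, Ifitm1 at 1.31 and Nanos3 at 1.63. Nanos2, which is on both the protein partner list and the male germ cell list, rose to 97.1 CPM at E14.5, against 0.188 CPM at E12.5. With Nanos2 among them, 4 of 7 male germ cell genes rose in edgeR, beside 4.92% of all genes called higher and 7.75% lower. Of these 7 genes DESeq2 called 2 and voom 4.

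Over the 20 libraries, the genes differed in how closely they followed each other. Prdm1 and Prdm14 followed each other most closely, with a Pearson correlation of log2(CPM + 1) of 0.94, and Prdm14 and Dnd1 stood at 0.81, Prdm1 and Dnd1 at 0.75. Tfap2c stood at 0.68 with Alpl, 0.61 with Prdm1, 0.48 with Prdm14 and 0.11 with Dnd1. Alpl stood at 0.33 with Prdm1, 0.18 with Prdm14 and 0.15 with Dnd1. These are descriptions over 20 libraries in 10 groups that share their stages, sexes and library preparation. Among 9660 genes, by the correlation of edgeR's log2 CPM with a prior count of 2, those most like Prdm1 were Nanog (0.957), Tor1a (0.939) and Prdm14 (0.934), and those most like Prdm14 were Gnpnat1 (0.965), Tor1a (0.956) and Mfsd14a (0.942). Tfap2c was most like Elf3 (0.913), N4bp2 (0.908) and Rgcc (0.898), Alpl like Mbp (0.920), B3gnt7 (0.890) and Porcn (0.862), and Dnd1 like Hexa (0.963), Arid3b (0.951) and Pprc1 (0.949).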

How the data were processed

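Poly(A) RNA of sorted PGCs was made into cDNA with 15 amplification cycles and into libraries with 15 more, per the labels. The authors deposited raw counts per gene, in 1 table for the 20 libraries of the Tet1 cross and 1 for the 2 MF1 libraries. Per the submitters' processing notes, Trimmomatic, TopHat2 2.0.2, Bowtie 0.12.8 and HTSeq 0.5.3p9 were used with the mm9 build; strand and multi-mapping settings are not given in the sources used here. No coordinates were taken from the counts. Exon lengths and gene overlaps came from a later build.

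Genes with too few counts were removed with edgeR's filterByExpr (minimum count 10, minimum total 15), leaving 17567 genes. R 4.3.3 with edgeR 4.0.16 (TMM scaling, robust quasi-likelihood, 1 coefficient per group over 20 libraries, 10 residual degrees of freedom) gave each ratio, with Benjamini-Hochberg adjustment over all genes tested. A gene was called at adjusted p under 0.05, and every p in the report is this adjusted p unless called unadjusted. The MF1 fit used 4 libraries and 15500 genes. Alternatives were RLE scaling, DESeq2 1.42.0, limma 3.58.1 voom, no filter, only the 4 libraries compared, leaving out each library, and a replicate block. The replicate numbers did not pair the libraries. In 4 Tet1-KO groups the table headers repeat a number, so those 8 libraries are called a and b. The method was also run on simulated counts. These were drawn from its own fitted spread, with 1 mean per gene over all groups except for genes set to differ. They lack the stage, sex and cell type differences of these data, so the run cannot vouch for the calls here. The genes and lists were chosen with earlier results of these data known; from each list, up to 3 called genes with the smallest p were named. Python 3.11.15 and matplotlib 3.10.9 drew the figures. Reads amplified without molecular identifiers do not count single molecules.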

Additional observations from a re-analysis of the deposited data

Results flagged for a closer look

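The effect of Tet1-KO on Tfap2c at E14.5 differed between the sexes by the test of the difference itself, with males minus females at -2.38 on the log2 scale (SE 0.56, adjusted p = 0.0495). The call was lost in 13 of the 20 fits that left out 1 library, with the adjusted p up to 0.242, and under voom (-2.41, 0.0818). The effect was 0.29 in males (19.68 and 10.08 CPM in the Tet1-KO libraries, against 16.99 and 7.432 CPM in Tet1-WT) and 2.67 in females (46.55 and 68.6 CPM in the Tet1-KO libraries, against 6.796 and 11.55 CPM in Tet1-WT). Both male groups and the female Tet1-WT group lay between 6.796 and 19.68 CPM, and the female Tet1-KO libraries lay above all of them.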

How the results depend on the processing

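Calls among the 5 genes by edgeR over all libraries were 10 for Tet1-KO against Tet1-WT by group, 5 for the average, 1 for the sex difference in effect, 0 for the stage difference in effect, 15 for stage, 8 for sex and 0 for MF1. DESeq2 gave 2 for the sex difference, 2 for the stage difference and 4 for MF1. Without the low count filter these were 4, 3 and 5, and Tet1-KO by group gave 14, stage 21 and sex 10. That fit kept every gene with any count. Its log2 ratios lay close to those with the filter, so the added calls came from smaller p-values. Such added calls are listed as a dependence on the setting, not as support. The shares of all genes printed in the report come from edgeR with the filter on low counts. DESeq2, voom and the fit without the filter have no such share beside them. Whether their counts among the 5 genes exceed the shares of their own settings was not tested. With only the 4 libraries compared, Tet1-KO against Tet1-WT gave 6. Leaving out a library gave 5 to 11 for Tet1-KO by group, 5 to 5 for the average, 0 to 2 for the sex difference, 0 to 1 for the stage difference, 11 to 16 for stage, 6 to 9 for sex and 0 to 5 for MF1. The cause was not tested. Calls otherwise lost were Prdm1 in E14.5 Tet1-KO against Tet1-WT females with only the 4 libraries compared (1.45, adjusted p = 0.0899), Prdm14 there under voom (2.27, 0.0651), and Alpl at E12.5 against E10.5 in Tet1-KO males with only the 4 libraries compared (-1.29, 0.0835).

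Over all settings 24 of 115 values changed sign, the largest of them 0.42 in size and 0 of them called. Leaving out 1 library turned the sign of 8 among the values that the report prints: Alpl in the effect at E14.5 minus E12.5 in females (-0.05 to 0.53), Alpl E14.5 against E12.5 in Tet1-KO females (-0.39 to 0.14, turned at 0.01 and 0.14) and Tet1-WT males (-0.06 to 0.40), Prdm1 in Tet1-KO males (-0.02 to 0.20) and Tet1-WT males (-0.70 to 0.28), Prdm14 in Tet1-WT males (-0.45 to 0.18), and Tet1-KO against Tet1-WT in E14.5 males for Alpl (-0.04 to 0.44) and Tfap2c (-0.29 to 0.98, turned at -0.29 and -0.22). Of the 39 called values 0 changed sign in any setting.

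The replicate block left 5 of 5 calls at E10.5, where calls over all genes went from 1547 to 826. In E14.5 against E12.5 Tet1-WT females it left 4 of 4 (4446 to 3476 over all genes). In E12.5 against E10.5 Tet1-WT females it left 2 of 3 (2396 to 1310), losing Prdm1 (log2 1.11, adjusted p = 0.135). In E14.5 against E12.5 Tet1-WT males it left 1 of 2 (2227 to 1283), losing Tfap2c (-1.29, 0.0969). For MF1 it called 0 of the 5, while calls over all genes went from 94 to 393. The replicate numbers share no measured deviation (correlations -0.03 to 0.05).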
